A study of Arabidopsis thaliana with 27 samples.

Results

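Root tips of the inducible ΔMP line were compared between 180 and 90 min of estradiol, which is 6 of the 27 samples of the series. The samples were chosen by genotype, treatment and time alone, and all genes were tested. ΔMP is a form of ARF5/MP, an auxin response factor, that escapes its repressors. In this line it was driven from the pG1090::XVE module, an estradiol-switched promoter active throughout the plant. The 3 samples at 180 min and the 3 samples at 90 min came from 5-d-old seedlings kept on 2.5 µM estradiol, and each sample pooled the root tips of many seedlings. Beside them stood 3 ΔMP samples mock treated for 90 min. Col-0, the wild type without a transgene, had 3 samples on estradiol at each of the same times, and so did the line inducing AXR3-1, a stabilised form of the repressor IAA17. No mock sample of 180 min was analysed here, so longer ΔMP activity, longer estradiol and later clock time cannot be told apart within the ΔMP line, and Col-0 gives what time and estradiol did without the transgene. The labels do not tell whether replicates were separate cultures, so p-values measure the spread between these samples, which may be technical.

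In the nuclear auxin pathway, auxin binds TIR1/AFB receptors and removes Aux/IAA repressors, which frees ARFs such as ARF5/MP on the promoters of their targets. Classic targets are the Aux/IAA genes themselves, the GH3 enzymes that conjugate auxin and the SAUR genes of growth control. In the root, an active pathway slows cell elongation and promotes root hairs and lateral organ founding.

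The ARF5/MP locus (AT1G19850), whose count sums the transgene and the native gene, was at 909.9, 898 and 976 TPM (a share of all transcripts, scaled to coding length) in the 3 libraries of 90 min. At 180 min it was at 1416, 1342 and 1425 TPM. The mock ΔMP libraries were between 9.06 and 9.47 TPM. The induced groups did not overlap, and the level rose by a further 0.63 ± 0.05 on the log2 scale (SE, adjusted p = 1.57e-11 by edgeR's quasi-likelihood test, 3 against 3) between the 2 times. IAA17/AXR3 (AT1G04250) differed by 0.12 ± 0.05 on the log2 scale and did not pass (adjusted p = 0.0964 by edgeR). The ΔMP libraries held 15935379 to 34272503 read pairs, and the correlation of log expression within each group was 0.9915 or more. All 13 listed genes of the quiescent centre and meristem were detected, WOX5 among them, with a summed level of 225 to 272 TPM over the 6 libraries. The summed level of 19 green tissue markers was of similar size, 142 to 212 TPM over the 6 libraries.

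Between 90 and 180 min of ΔMP induction, 596 of 19530 tested genes changed at least 2-fold with an adjusted p of 0.05 or less, which is the call used throughout. Of these, 408 rose (2.09% of all genes tested) and 188 fell (0.963%). By adjusted p alone, 2165 genes were higher (11.1%) and 1989 lower (10.2%), and the median change of all genes was 0.00 on the log2 scale. A change of 4-fold or more was found for 163 of the called rises and 24 of the called falls. The largest shifts were toward higher levels. The call sits on a continuum: ZIP9 was just inside at 1.0003 and AT4G37240 just outside at 0.9971 on the log2 scale, and SOFL1 and AT2G41640 were the same pair on the falling side, at -1.0011 and -0.9962. In 402 of the rises and 184 of the falls the 3 libraries of 180 min did not overlap those of 90 min. Among all tested genes, the 180 min libraries lay wholly above those of 90 min for 15.8% and wholly below for 20.1%.

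The same interval in Col-0 called 72 genes up (0.369% of genes tested) and 27 down (0.138%). Of the 408 rises in ΔMP, 46 (11.3%) were also higher in Col-0 by adjusted p (2.83% of all genes were) and 2 were lower, and the median Col-0 change of the 408 was 0.23 on the log2 scale against 1.71 in ΔMP. Of the 188 falls, 47 (25.0%) were also lower in Col-0 (2.82% of all genes were), with medians of -0.26 in Col-0 and -1.31 in ΔMP. The difference between the lines was tested directly as an interaction. It passed in the same direction for 245 of the rises (1.25% of genes tested met both conditions) and 112 of the falls (0.573%). Of the 163 rises that did not pass, 37 had fewer than 3 counts in a Col-0 group, where this test has little to work on, so a large fitted difference can carry an adjusted p of 1.

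**Figure D1:**
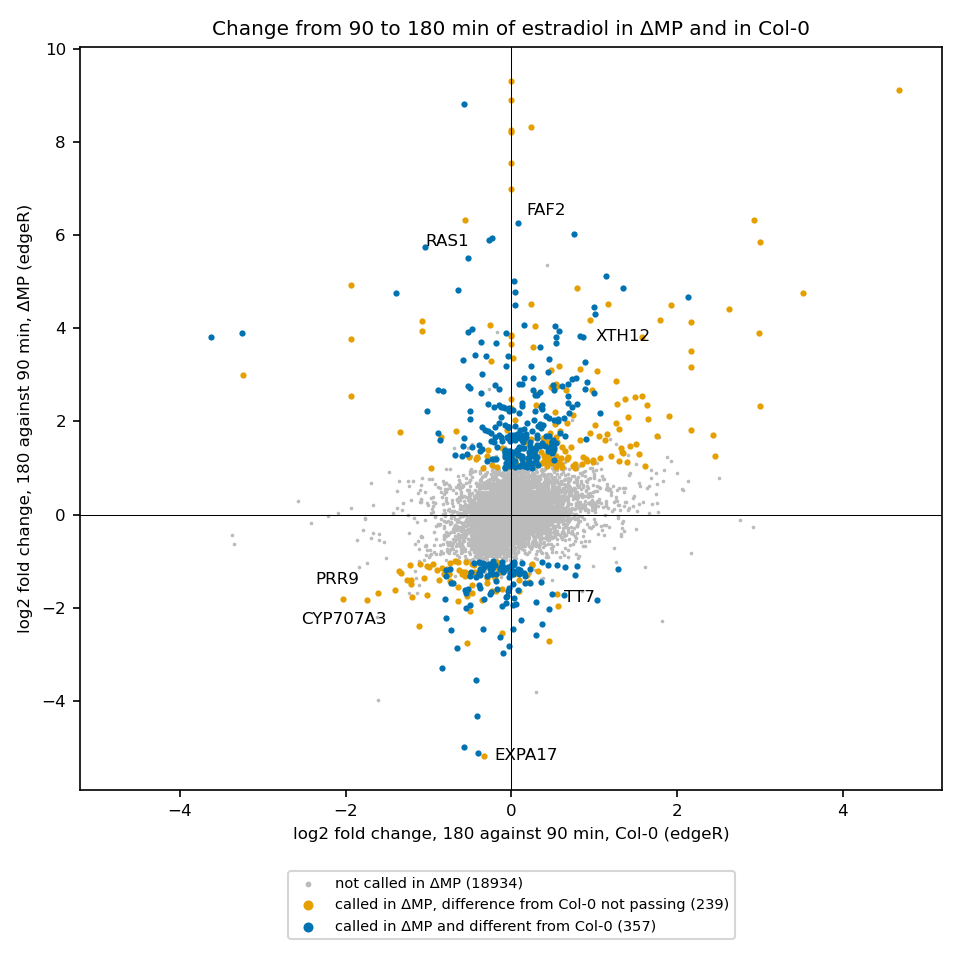
Log2 fold change from 90 to 180 min of estradiol in Col-0 (x axis) and in ΔMP (y axis), edgeR, one point per gene for 19530 genes, with 3 libraries per group. The 357 blue genes differed between the lines, and the 239 orange genes were called in ΔMP without a passing difference. FAF2 and RAS1 lie high on the y axis and near 0 on the x axis, whereas CYP707A3 and PRR9 fell in both lines.

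Among the 20 named genes with the largest rises, the mean at 90 min reached 3.5 TPM, in XTH12, and the mean at 180 min ranged from 2.22 TPM in GRP14 to 48.0 TPM in RNS1. RAS1, a gene named for its response to abscisic acid and salt, was at 0.216, 0.329 and 0.634 TPM at 90 min and at 20.3, 21.0 and 26.2 TPM at 180 min. Its change was 5.94 ± 0.24 on the log2 scale (adjusted p = 9.57e-19 by edgeR), with -0.23 in Col-0. FAF2, of a plant-specific family known for its effect on the shoot meristem, rose from 0.25, 0.117 and 0.213 TPM to 11.9, 15.2 and 17.3 TPM, a change of 6.26 ± 0.30, and its Col-0 change was 0.08. FAF1, FAF3 and FAF4 were within 0.36 of no change on the log2 scale and did not pass. RNS1, a secreted ribonuclease, stood out among these genes for its level, from 1.61, 2.72 and 2.09 TPM to 48.1, 44.1 and 51.9 TPM. NCED4, a carotenoid cleavage enzyme, rose by 6.03 ± 0.28 on the log2 scale and KCO2, a potassium channel, by 5.76 ± 0.47, each with groups that did not overlap.

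GA20OX5, ZFP2 and SAUR75 had no count in any of the 3 libraries of 90 min. At 180 min GA20OX5, a gibberellin oxidase gene, was at 3.29, 2.55 and 3.06 TPM, at least 112-fold higher per read pair than the 3 counts over the group that no detection allows. ZFP2, a zinc finger gene, was at 9.3, 10.2 and 11.8 TPM (at least 99.8-fold), and SAUR75 was at 5.79, 10.7 and 14.4 TPM (at least 87.7-fold). The SAUR75 call (adjusted p = 2.98e-07 by edgeR) was lost with DESeq2, where its adjusted p was 0.377. In Col-0, ZFP2 was listed at a mean of 0.464 TPM at 180 min, and the other 2 genes at 0 TPM at both times. The remaining genes among the 20 largest rises were XTH26, IAA5, AGD11, RLP37, CYP706A2, GRP14, XTH12, PRA1.F1, SAUR63, SAUR15, BOR5 and SAUR68, between 3.52 and 6.32 on the log2 scale. All but SAUR63, SAUR15, SAUR68, XTH26 and GRP14 of these 12 also differed from Col-0 by the interaction.

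**Figure D2:**
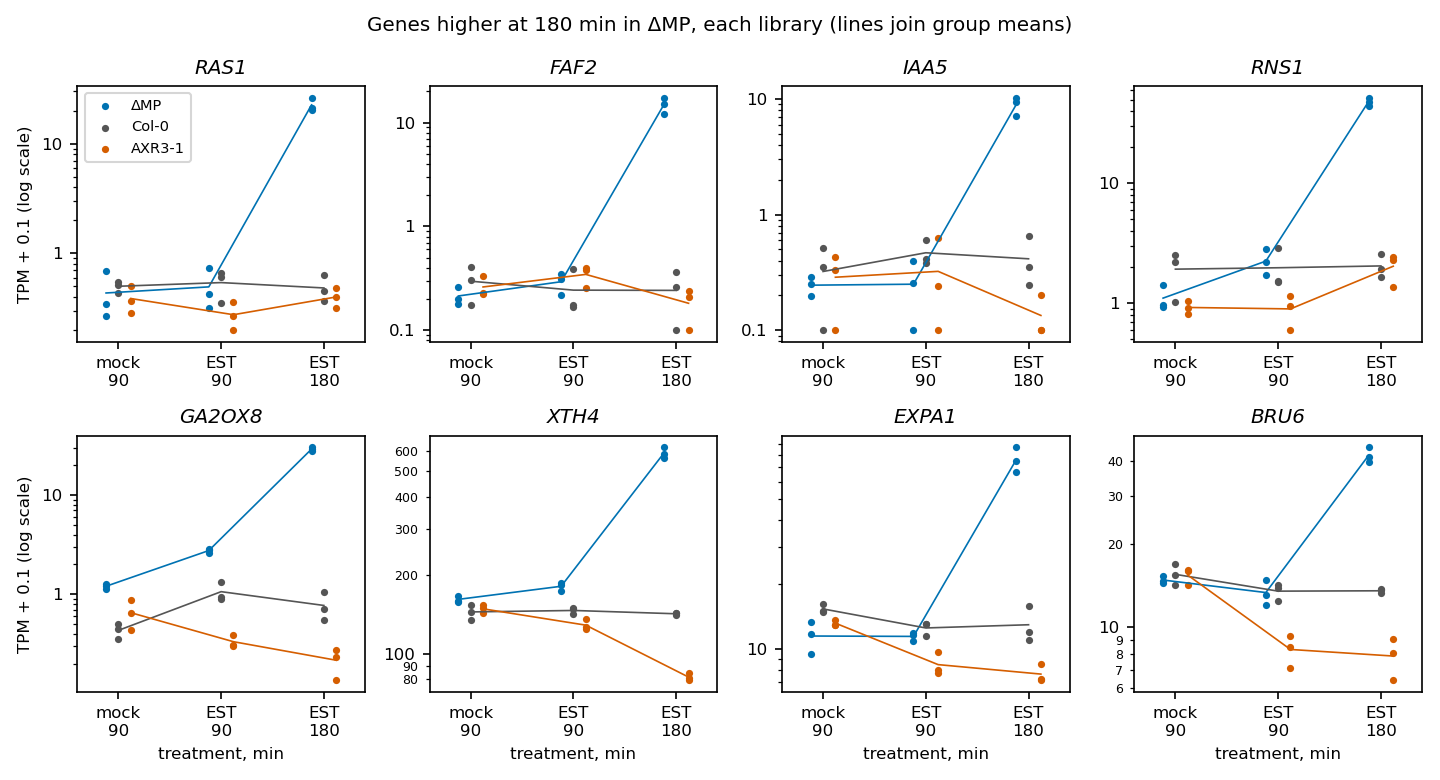
TPM + 0.1 on a log axis for 8 genes in each library of ΔMP (blue), Col-0 (grey) and AXR3-1 (orange), mock 90 min, estradiol 90 min and estradiol 180 min, with lines through the means of 3 libraries. In every panel the 3 ΔMP libraries of 180 min lie above all other libraries, from 7.06 TPM or more for IAA5 to 562 TPM or more for XTH4.

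The bases upstream of the start of some of these genes are shown because they carry the letters of auxin response elements, TGTCTC and TGTCGG, which ARFs bind. Each run is the 250 bases before the gene start of the RefSeq annotation of TAIR10.1, read 5′ to 3′ toward the gene, and capitals mark either element on either strand. IAA5 (chr1:5366498-5366747, minus strand) held 3 elements, starting 226, 97 and 67 bases before the start. RAS1 (chr1:3241864-3242113, minus strand), AGD11 (chr3:2390872-2391121, plus strand), SAUR63 (chr1:10305109-10305358, minus strand) and SAUR68 (chr1:10322173-10322422, plus strand) held 1 each, at 241, 35, 83 and 93 bases before the start.
IAA5: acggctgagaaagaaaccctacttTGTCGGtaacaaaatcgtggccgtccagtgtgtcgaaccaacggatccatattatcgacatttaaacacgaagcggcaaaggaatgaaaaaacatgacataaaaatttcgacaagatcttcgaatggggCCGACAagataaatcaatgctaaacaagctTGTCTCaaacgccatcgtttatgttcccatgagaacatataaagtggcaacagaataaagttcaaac
RAS1: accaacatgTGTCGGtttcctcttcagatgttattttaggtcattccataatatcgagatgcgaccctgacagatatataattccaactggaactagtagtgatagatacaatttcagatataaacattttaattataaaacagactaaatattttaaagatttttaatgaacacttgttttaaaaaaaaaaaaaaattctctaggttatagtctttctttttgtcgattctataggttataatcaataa
AGD11: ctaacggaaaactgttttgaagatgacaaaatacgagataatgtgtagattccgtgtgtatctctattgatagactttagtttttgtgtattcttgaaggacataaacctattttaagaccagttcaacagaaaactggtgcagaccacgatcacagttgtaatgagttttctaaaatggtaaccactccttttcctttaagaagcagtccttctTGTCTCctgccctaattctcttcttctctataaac
SAUR63: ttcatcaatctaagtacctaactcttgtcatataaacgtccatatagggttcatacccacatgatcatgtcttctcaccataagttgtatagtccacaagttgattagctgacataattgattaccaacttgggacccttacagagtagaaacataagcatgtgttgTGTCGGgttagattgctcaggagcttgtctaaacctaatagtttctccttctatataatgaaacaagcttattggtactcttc
SAUR68: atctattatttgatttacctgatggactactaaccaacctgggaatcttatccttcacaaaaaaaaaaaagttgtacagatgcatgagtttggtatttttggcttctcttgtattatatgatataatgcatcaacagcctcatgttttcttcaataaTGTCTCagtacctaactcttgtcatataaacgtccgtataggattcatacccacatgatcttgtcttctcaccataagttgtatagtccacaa
The runs of SAUR63 and SAUR68, members of the same gene cluster, share a stretch of 32 identical bases. Of the 20 genes with the largest rise, 8 held an element in these 250 bases, as did 14.8% of all tested promoters and 25.7% of those of genes that rose.

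Over all promoters, from 250 bases before to 50 bases after the start and on both strands, 131 of 408 genes that rose (32.1%) held TGTCTC or TGTCGG, against 31 of 187 genes that fell (16.6%) and 3603 of 19389 tested genes (18.6%). TGTCTC was in 25.0% of the risen, 11.8% of the fallen and 13.6% of all promoters, and TGTCGG in 8.82%, 4.81% and 5.64%. CACGTG, the G-box, showed the opposite order, with 5.15%, 11.2% and 8.66%. These shares are descriptions of letters in a window, with no test.

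The Aux/IAA repressors, the feedback arm of the pathway, were mostly higher at 180 min. Of 27 tested members, 15 were higher at 180 min by adjusted p, 6 of them called, and 1 was lower. Their median change was 0.45 on the log2 scale against 0.00 for all genes, and the background is 11.1% higher by adjusted p. In Col-0 no member was higher and 2 were lower over the same interval. IAA5 was at 0.157, 0 and 0.293 TPM at 90 min and at 10.2, 7.06 and 9.34 TPM at 180 min. IAA6 rose by 3.32 ± 0.32, IAA31 by 2.70 ± 0.33, IAA19 by 1.58 ± 0.10 and IAA1 by 1.34 ± 0.11 on the log2 scale, each also different from Col-0. IAA32, at 1.91 TPM in the mean at 180 min, rose by 1.68 ± 0.45 (adjusted p = 0.00636 by edgeR), a call lost without replicate C of 180 min (adjusted p = 0.0563) or replicate B of 90 min (adjusted p = 0.0566). The most abundant members moved less: IAA16 by 0.49 ± 0.06 and IAA9 by 0.39 ± 0.05, from means of 325 and 315 TPM. IAA28 was the member that fell, by 0.62 on the log2 scale, and it fell by 0.47 in Col-0 as well.

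Of 13 tested ARF genes other than ARF5, 6 were higher by adjusted p and none was called, with ARF10, a repressing ARF, at 0.89 ± 0.06 on the log2 scale and ARF19 and NPH4 (ARF7), activating ARFs, at 0.27 and 0.17. None of the 6 TIR1/AFB receptor genes rose and 1 fell. Of 8 tested genes that conjugate or methylate auxin, 4 were called up, where 2.09% of all genes were. These were the GH3 enzymes GH3.3, WES1, BRU6 and DFL1, which link auxin to amino acids. The listed oxidation genes DAO1 and DAO2 were not matched by name, so auxin oxidation was not looked at. GH3.3 went from 1.62, 1.46 and 1.81 TPM to 9.18, 6.77 and 8.36 TPM, a change of 2.37 ± 0.14 on the log2 scale. BRU6 was at 13.0, 11.9 and 14.8 TPM at 90 min and at 44.8, 41.2 and 39.7 TPM at 180 min, with a Col-0 change of 0.02 on the log2 scale. IAMT1, which methylates auxin, fell from 11.8, 11.5 and 12.8 TPM to 5.24, 5.48 and 5.40 TPM. Of 19 auxin transport genes, 4 were higher and 5 lower by adjusted p, against 11.1% and 10.2% of all genes. Of 9 synthesis genes, TAA1 rose by 0.64 and YUC9 fell by 0.92 on the log2 scale. Of 11 tested genes of a list of developmental MP targets and partners, such as TMO5, LHW and ANT, none passed in either direction. Their median in these whole root tips was 0.07.

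Of 44 tested SAUR genes, 17 were called up and 2 down, against 2.09% and 0.963% of all genes, with a median of 0.46. This was the largest count of called rises among the lists, though not the largest share. SAUR26 was at 0 in all 3 mock libraries, at 2.59, 1.83 and 2.27 TPM at 90 min and at 8.13, 16.5 and 13.5 TPM at 180 min. AT1G29430 was at 0 in the mock, at 0.376, 0.847 and 0.299 TPM at 90 min and at 8.28, 7.42 and 8.93 TPM at 180 min. AT1G72430, the most abundant called member, went from a mean of 102 to 243 TPM. AT4G34810 and AT1G19840 fell by 1.28 and 1.21. SAUR genes are near copies of each other and single reads can be shared among them, so the split between neighbours is uncertain. In the difference from Col-0, 3 of the 44 were called up and 2 down, and 4 passed each way by adjusted p. This difference called 1.44% of all genes up and 0.635% down, and 4.93% passed upward by adjusted p.

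Runs of neighbouring genes called in the same direction were few: 4 runs of 3 or more. The longest held AT1G29430, SAUR63, AT1G29450 and AT1G29460 on chromosome 1 (10302585 to 10308246, TAIR10.1), with rises of 3.9, 3.78, 3.86 and 2.99 on the log2 scale. On chromosome 5 (6689108 to 6694058), RAP2.11, an ERF-type factor of the potassium response, rose by 2.18, AT5G19800 by 2.13 and the extensin-like AT5G19810 by 4.79. AT5G19810 was at 0.71, 1.05 and 0.771 TPM at 90 min and at 22.1, 24.6 and 23.8 TPM at 180 min. A run on chromosome 4 held AT4G27280, AT4G27290 and AT4G27300, and one on chromosome 1 held AT1G52560, AT1G52565 and PLDALPHA2, with AT1G52560, a small heat shock protein gene, at 4.31. Called genes lay on all 5 chromosomes. A single coding exon was found in 28.4% of the rises and 26.7% of the falls, against 18.7% of all tested genes.

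Genes of root hairs, the tubular outgrowths of the epidermis, held the largest count of members higher by adjusted p in any list, though not the largest share. Of 34 tested members, 25 were higher at 180 min by adjusted p, 13 of them called, and 1 was lower, with a median of 0.59 on the log2 scale. By adjusted p 11.1% of all genes were higher and 10.2% lower, and 2.09% were called up. In Col-0, 6 were higher and 3 lower, against 2.83% and 2.82% of all genes, with a median of 0.09. The difference between the lines was positive and passed for 20 members, against 4.93% of all genes. PRP3, a root hair wall protein, was at 62.6, 56.3 and 78.9 TPM at 90 min and at 264, 256 and 277 TPM at 180 min. RHS18 went from 7.11, 6.18 and 7.42 TPM to 27.2, 27.4 and 31.4 TPM, and RHS14 rose by 2.54 ± 0.17. Their starting point was low: at 90 min 13 of the 34 were below the mock by adjusted p and none above, with a median of -0.31, where 2.75% of all genes were below and 1.28% above. PRP3 had been at 119, 132 and 108 TPM in the mock. Both comparisons share the 90 min libraries. The 180 min levels of PRP3 and RHS18 also lay above every mock library. RHD6, a bHLH factor at the start of the root hair program, fell by 0.61, and by 0.47 in Col-0. Among the downstream factors, RSL4 did not pass and RSL2 rose by 0.34.

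The change over this interval differed between ΔMP and AXR3-1 for 937 genes (4.8% of those tested). In AXR3-1 several root hair genes went the other way over the same interval: RHS18 by -2.04, RHS14 by -2.02 and RSH3 by -1.63 on the log2 scale. The summed level of the list was 577 to 690 TPM in the 90 min libraries and 1182 to 1271 TPM in those of 180 min, and the groups did not overlap. In bulk tissue a larger number of hair cells and more RNA per hair cell cannot be told apart. Of 10 epidermal fate genes, 4 rose and 1 was called, MYB23, a factor of non-hair cells, from 6.38, 7.30 and 7.14 TPM to 24.2, 22.8 and 29.4 TPM. GL2, which marks non-hair cells, rose by 0.89. Of 15 tested RopGEF or ROP effector genes, a family picked after its values were seen, 3 were called up and 0 down, with a median of 0.14. Over all genes tested, 2.09% were called up. RIC1 (2.67 ± 0.21) and ROPGEF12 (2.67 ± 0.20) were among the 3, both also different from Col-0.

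**Figure D3:**
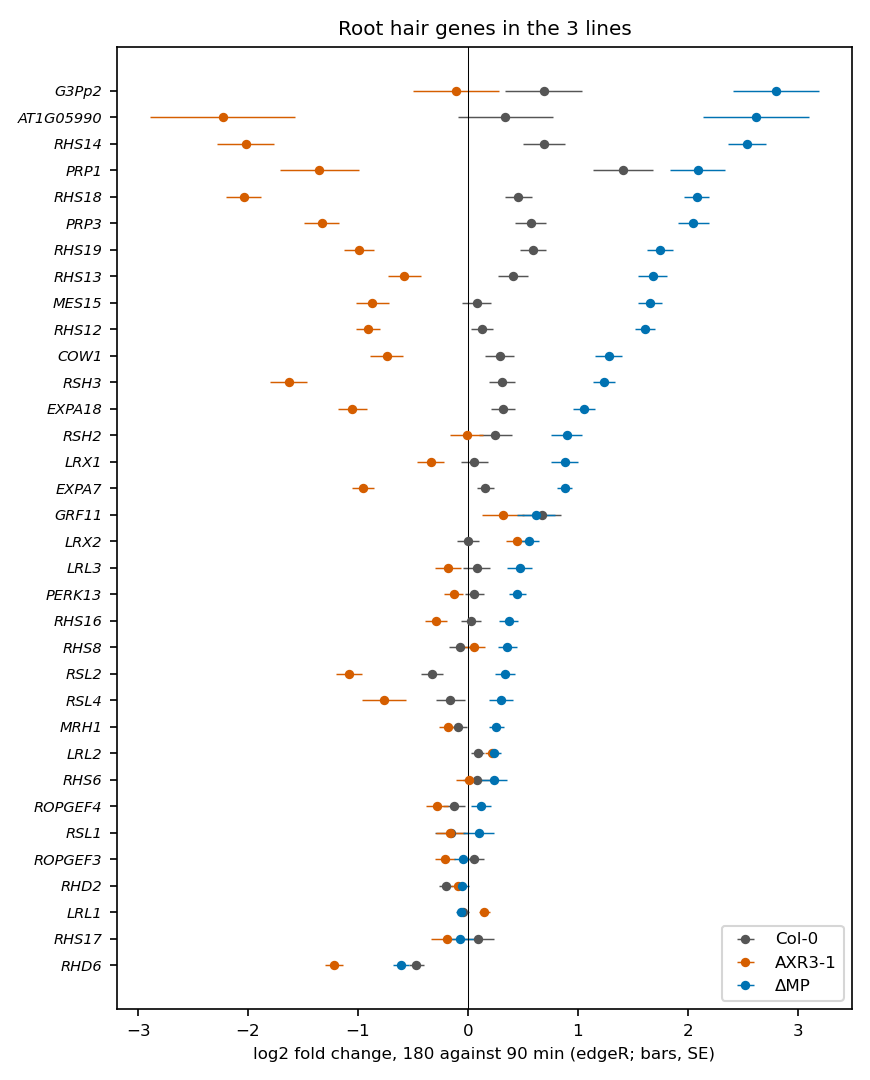
Log2 fold change from 90 to 180 min (edgeR, bars are SE, 3 libraries per group) for 34 root hair genes in ΔMP (blue), Col-0 (grey) and AXR3-1 (orange). In ΔMP 25 genes passed above 0 and RHD6 passed below 0, whereas the Col-0 points gather near 0 and several AXR3-1 points reach below -1.

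Of 27 XTH genes, which cut and rejoin xyloglucan, 8 were called up and none down, against 2.09% and 0.963% of all genes. By adjusted p 5 were lower, against 10.2% of all genes, and the median was 0.02. XTH4 had the largest gain of any called gene with a symbol, from 187, 175 and 184 TPM to 584, 562 and 618 TPM, a change of 1.71 ± 0.05, with -0.02 in Col-0. XTH19 went from 204, 194 and 226 TPM to 465, 474 and 518 TPM. XTH12 rose from 3.36, 2.50 and 4.63 TPM to 44.3, 44.6 and 51.6 TPM. The summed level of the XTH genes was 1330 to 1394 TPM at 90 min and 2188 to 2341 TPM at 180 min. By gain in TPM, DGR1, a wall protein gene, came next after XTH4, from 224, 230.3 and 239 TPM to 583, 586 and 592 TPM. AGP3, an arabinogalactan protein gene, went from 92.2, 77.6 and 90.3 TPM to 268, 183 and 279 TPM. In its list of 40 tested genes, 4 were higher and 7 lower by adjusted p, against 11.1% and 10.2% of all genes, with a median of -0.04. The summed level of the list was 12070 to 12740 TPM at 90 min and 10420 to 11610 TPM at 180 min. UGT74E2, which glucosylates the auxin precursor indole-3-butyric acid, went from 28.2, 28.9 and 29.6 TPM to 118, 115 and 131 TPM, with -0.12 in Col-0. Of 16 cellulose synthesis genes, 1 was higher and 1 lower.

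Of 22 expansins, which loosen walls, 6 were called up and 1 down, against 2.09% and 0.963% of all genes, with a median of 0.50. EXPA1 was at 11.7, 10.8 and 11.5 TPM at 90 min and at 74.8, 66.5 and 86.7 TPM at 180 min (2.80 ± 0.11). EXP3 (EXPA3) rose by 3.18 ± 0.21. Of the other calls, EXPA12 and EXPA10 were lost without single libraries (EXPA12 had an adjusted p of 0.232 without replicate B of 180 min and 0.119 or 0.0947 without replicate B or C of 90 min, EXPA10 of 0.0569 without replicate B of 180 min and 0.089 without replicate C of 90 min). EXPA18 was near the 2-fold limit, at 1.06, and at 0.97 or 0.93 without replicate C of 180 min or B of 90 min.

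EXPA17 had the largest fall of all genes with a symbol. It was at 91.6, 91.8 and 115 TPM in the mock, at 60.0, 57.5 and 58.0 TPM at 90 min and at 2.47, 1.08 and 1.53 TPM at 180 min. The change was -5.14 ± 0.16 on the log2 scale (adjusted p = 7.94e-22 by edgeR), 34.5-fold between the group means, against -0.41 in Col-0 and 0.90 in AXR3-1. CYP702A2, a P450, went from 8.51, 7.66 and 8.09 TPM to 1.36, 1.61 and 1.41 TPM. ATCSLB05, a cellulose synthase-like gene, went from 14.5, 15.4 and 16.6 TPM to 5.29, 4.63 and 4.79 TPM. AT1G05650 and AT1G05660, neighbouring locus numbers annotated as pectin lyase-like, were named after their values were seen. AT1G05650 went from 22.7, 18.5 and 20.6 TPM to 0.654, 0.632 and 0.608 TPM (-5.00 ± 0.16), and AT1G05660 fell by 2.63 on the log2 scale, both different from Col-0. NLM1, a NIP-type aquaporin, lost the most TPM of the called genes with a symbol, from 177, 148 and 166 TPM to 70.4, 65.7 and 62.8 TPM.

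CAD6 (-2.83 ± 0.26), WRKY53 (-1.97 ± 0.29), ST4A (-1.95 ± 0.29), HMT3 (-1.75 ± 0.21) and UGT84A1 (-1.48 ± 0.13) fell with Col-0 changes within 0.17 of 0, and each differed from Col-0. TT7, a flavonoid hydroxylase, fell from 15.3, 13.2 and 14.2 TPM to 4.55, 4.21 and 4.06 TPM while it rose by 0.49 in Col-0. Of the 6 tested flavonoid genes, 3 fell: TT7, F3H by 0.22 and the regulator MYB12 by 1.40, with a fall of MYB12 by 1.26 in Col-0. In Col-0 4 of the 6 were higher and 1 lower by adjusted p, against 2.83% and 2.82% of all genes. The difference from Col-0 was negative and passed for 5 of the 6, with a median of -0.44, where 731 of 19530 genes passed downward. FRO2, the ferric reductase of iron uptake, was at 10.3, 7.04 and 14.3 TPM at 90 min and at 6.54, 2.67 and 3.54 TPM at 180 min, a small gap between groups, and CYP82C4, of iron deficiency coumarins, at 2.13, 1.73 and 5.81 TPM and then at 1.53, 0.556 and 0.665 TPM. The CYP82C4 call was lost without replicate B (adjusted p = 0.0671) or C (adjusted p = 0.0779) of 180 min, or C of 90 min (adjusted p = 0.165).

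**Figure D4:**
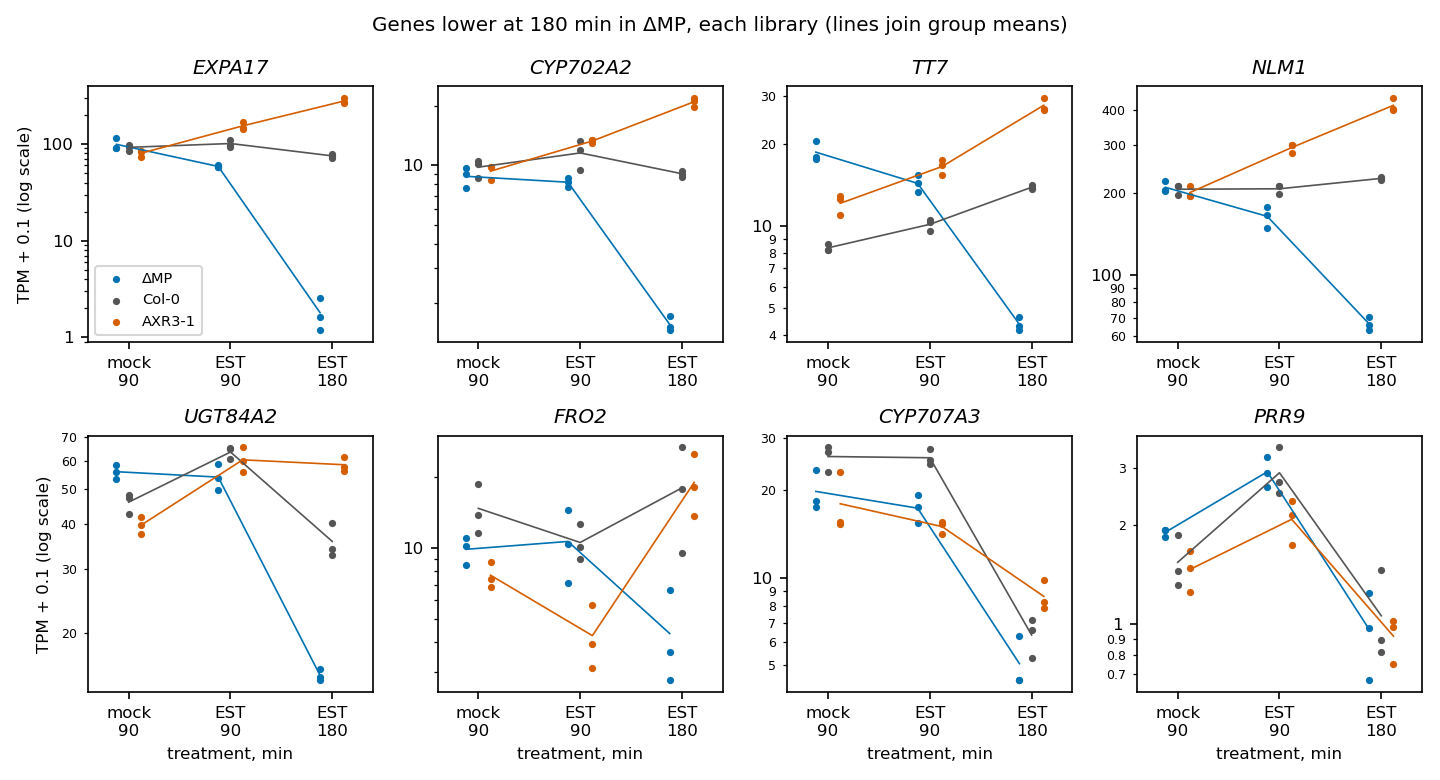
TPM + 0.1 on a log axis for 8 genes in each library of ΔMP (blue), Col-0 (grey) and AXR3-1 (orange), mock 90 min, estradiol 90 min and estradiol 180 min, with lines through the means of 3 libraries. EXPA17 fell to between 1.08 and 2.47 TPM in ΔMP at 180 min, while CYP707A3 and PRR9 fell in all 3 lines.

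Some of the largest falls were shared with Col-0. CYP707A3, an abscisic acid hydroxylase, fell by 1.82 in ΔMP and by 2.03 in Col-0. PRR9, a clock gene of the morning, fell by 1.68 and 1.6, ELIP1 by 1.61 and 1.41, and ELIP2, like ELIP1 an early light-induced protein gene, by 1.49 and 1.22 on the log2 scale. None of the 4 differed between the lines by the interaction (adjusted p from 0.442 to 0.953 by edgeR). Of 19 clock genes, 13 were lower by adjusted p in ΔMP and none higher, where 10.2% of all genes were lower. In Col-0 6 were lower and none higher, where 2.82% of all genes were lower. The medians were -0.30 and -0.27, and 1 member of the list passed in the difference. UGT84A2 fell in both lines, by 1.81 and 0.80, and further in ΔMP (difference -1.01, adjusted p = 3.74e-08 by edgeR).

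Of 13 tested green tissue markers, 10 were lower by adjusted p and none higher at 180 min, where 10.2% of all genes were lower. None was called, and the median was -0.43. In Col-0 1 of these markers was higher and none lower. Their summed level was 199 to 212 TPM in the 90 min libraries and 142 to 147 TPM in those of 180 min, without overlap. CAB1 and RBCS1A were at means of 12.4 and 30.2 TPM at 180 min. The part of this shift in the falls was not tested.

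Hormone genes other than auxin genes changed in parts of their pathways. Among GA2OX enzymes, which inactivate gibberellin, GA2OX8 went from 2.50, 2.70 and 2.78 TPM to 27.7, 29.1 and 30.1 TPM (3.43 ± 0.11), ATGA2OX1 from 2.38, 2.84 and 2.11 TPM to 8.07, 7.54 and 8.93 TPM (1.76 ± 0.17), and GA2OX6 from a mean of 22.9 to 34.2 TPM (0.61 ± 0.07). GA2OX2, the other tested member of 4, was at -0.18 and did not pass. In the difference from Col-0, 3 of the 4 were called up, where 1.44% of all genes were. In Col-0 itself 2 of the 4 were lower by adjusted p and none higher, with a median of -0.51. Of all genes, 2.82% were lower in Col-0. Of 10 tested genes of gibberellin synthesis, 4 were higher and 3 lower by adjusted p, with a median of 0.14, and 3 were called up. Among the called rises, GA20OX1 rose by 1.53 in ΔMP, and GA20OX2 by 2.18 in ΔMP and by 1.07 in Col-0. The difference from Col-0 passed upward for only 1 of the 10, also called, and downward for none, where 4.93% of all genes passed upward. None of 9 gibberellin signalling genes was called.

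Of 23 ethylene genes, ACS2, ACS5, ACS8 and ACS11, which make the ethylene precursor, were called up and ACS7 down. The shares over all genes were 2.09% up and 0.963% down. ACS2 went from 4.18, 4.34 and 4.41 TPM to 13.3, 13.5 and 15.0 TPM and ACS5 rose by 1.29 ± 0.12, both with Col-0 changes within 0.07 of 0. ACS8 was low, at 0.513 TPM in the mean at 180 min, and its call was lost without replicate B or C of 180 min (adjusted p = 0.0822 and 0.152) or B or C of 90 min (adjusted p = 0.08 and 0.0905). ACS7, at -1.17, fell by 0.96 without replicate C of 180 min. Of 14 brassinosteroid genes, 4 were higher and 4 lower by adjusted p, with a median of -0.08 and 3 called rises. BAS1, which inactivates the hormone, went from 16.1, 16.6 and 16.0 TPM to 45.2, 48.4 and 48.4 TPM, and BEE1 and BEE2, bHLH factors, rose by 2.91 and 1.39. CYP94B3 and CYP94C1, which oxidise jasmonoyl-isoleucine, rose by 3.4 ± 0.15 and 2.38 ± 0.10, while none of 19 jasmonate genes was called and 5 were lower.

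Most genes of the meristem, cell cycle and tissue patterning lists showed little change. Of 45 cell cycle genes none was called and 4 were higher, a share near the 11.1% of all genes. Of 23 HD-ZIP III and xylem genes 2 were higher, and of 16 protophloem genes 3. WOX5, the quiescent centre factor, was an exception, from 3.59, 4.08 and 3.49 TPM to 8.18, 10.7 and 10.9 TPM (1.43 ± 0.16), with a difference from Col-0 of 0.96 (adjusted p = 0.0172 by edgeR). LBD29, of lateral root founding, rose by 1.20 ± 0.21 from 3.23, 3.62 and 7.83 TPM to 10.2, 10.8 and 11.6 TPM, and by 0.99 without replicate A of 90 min. Of 21 nutrient uptake genes, 5 were higher and 9 lower by adjusted p, against 11.1% and 10.2% of all genes. Of these, 2 and 3 were called, and the median of the list was -0.42. The called falls were FRO2, ATSDI1, of sulfur deficiency, at -1.77 and the iron factor bHLH39 at -1.06, which fell by 0.85 without replicate C of 180 min and by 0.98 without replicate A of 90 min. The sulfate transporter SULTR1;1 rose by 3.19 ± 0.35 and the nitrate reductase NIA1 by 1.44 ± 0.10, both also different from Col-0.

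**Figure D5:**
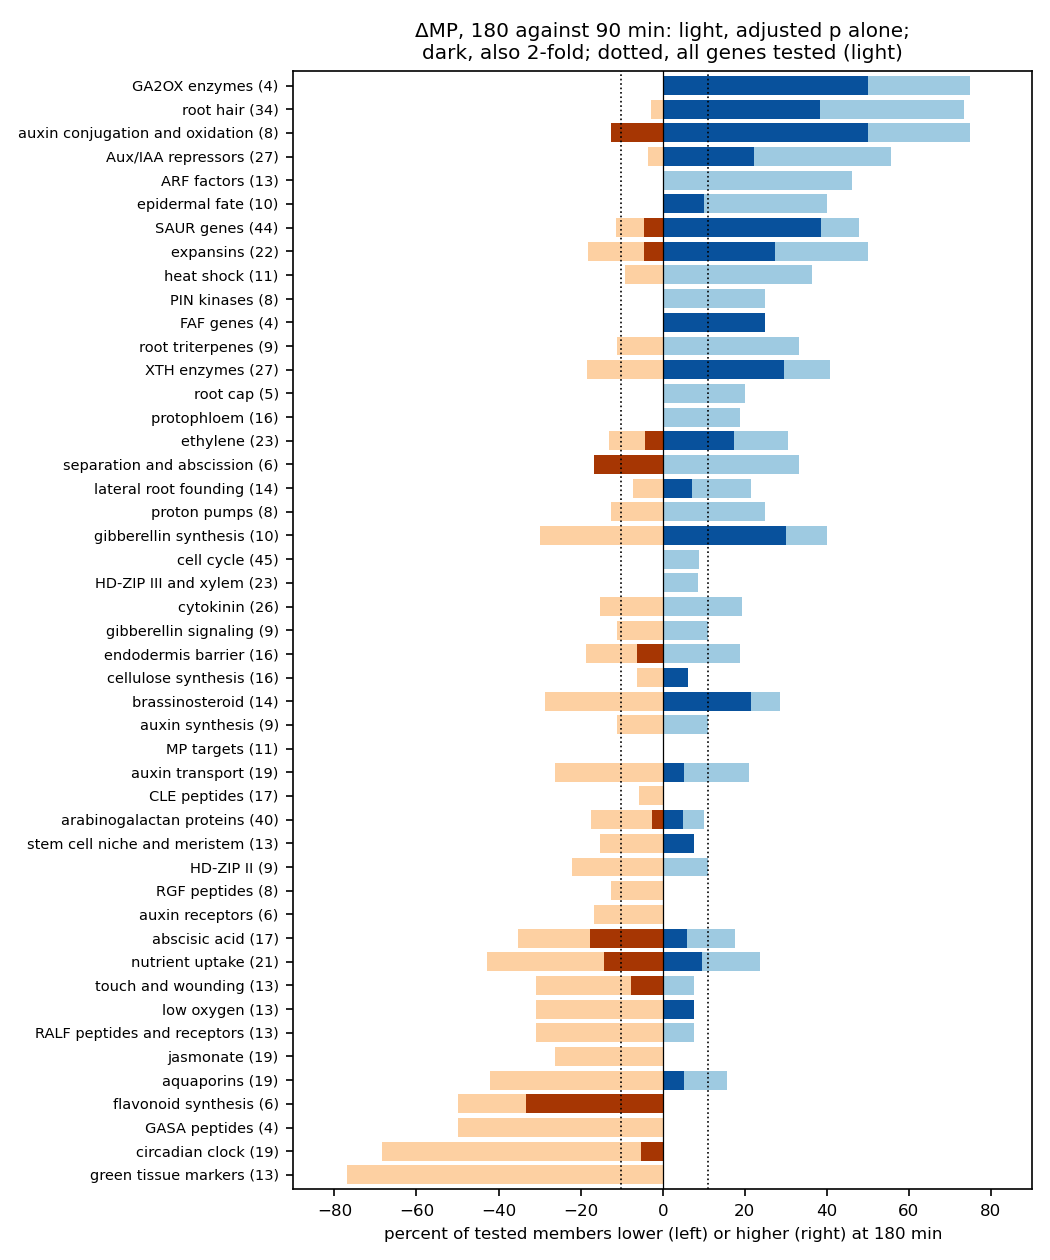
Percent of tested members (number in brackets) of each list with 4 or more members that were lower (left) or higher (right) at 180 min in ΔMP, by adjusted p alone (light) and also 2-fold (dark). The dotted lines mark all genes tested, 11.1% higher and 10.2% lower. The bars of the GA2OX, auxin conjugation and root hair lists reach furthest right, those of green tissue markers and the clock furthest left.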

How the data were processed

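RNA of root tips was sequenced in 27 libraries of 9 groups. The authors trimmed reads and quantified them with Salmon 1.3.0 against TAIR10 coding sequences, and deposited estimated counts and TPM per transcript. Coding sequences hold no UTR, and the transgene cannot be told from native ARF5. Estimated counts and TPM were summed per locus, and expected counts were rounded to whole numbers. edgeR 4.0.16 (R 4.3.3) fitted all 27 libraries in 1 quasi-likelihood model with TMM scaling (factors 0.965 to 1.03), a prior count of 0.125, 19530 genes after filterByExpr and 18 residual degrees of freedom, with Benjamini-Hochberg adjustment over all genes. A call needed an adjusted p of 0.05 or less and a log2 fold change of 1 or more in size. The model was tested on simulated data. Depth was 13634037 to 34272503 read pairs per library, and the number of read pairs sets the counting error of low genes. Replicates of one group differed by more than sampling noise (chi-square per gene 3.32 to 5.64 in ΔMP). Alternatives used DESeq2 1.42.0 and limma 3.58.1 on log2 of TPM plus 0.5 or 1.

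The members and the 47 gene lists (935 of 1030 names matched) were chosen with earlier results of these data known. Naming drew on called genes that had a symbol, a mean of 2 TPM or more where higher, and groups without overlap. From these came the top 20 by log2 fold change each way, the top 10 by change in TPM each way and the top 10 by difference from Col-0 each way. Also named were list members, ARF5, IAA17, the GA2OX genes and runs of called neighbours. Of the called genes, 304 had a locus number as their only name. Promoters were read from the RefSeq TAIR10.1 genome.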

Additional observations from a re-analysis of the deposited data

Results flagged for a closer look

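The change from 90 to 180 min differed between ΔMP and Col-0 for 406 genes, 282 upward (1.44% of genes tested) and 124 downward (0.635%). It differed between ΔMP and AXR3-1 for 937 genes (4.8%). Both are by an interaction term in edgeR's quasi-likelihood fit with a difference of 2-fold or more. AXR3-1 itself had 216 genes called up and 140 called down over this interval, of 19530 tested, where Col-0 had 99 called. Between ΔMP and AXR3-1, 73 of the called genes were called in opposite directions and 27 in the same direction (15 up, 12 down). Of the 408 rises in ΔMP, 50 were called down and 15 up in AXR3-1. Of the 188 falls, 23 were called up and 12 down. Of the 73, 30 met the conditions for naming. Values are the ΔMP change minus the AXR3-1 change on the log2 scale.

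Of the 30, 25 rose in ΔMP and fell in AXR3-1. The XTH enzymes XTH12 and XTH13 differed by 6.55 and 6.41, and reads may be shared between such close copies. The extensins EXT6, EXT12 and EXT13 differed by 4.56, 3.06 and 2.64, the proline-rich proteins PRP1 and PRP3 by 3.44 and 3.39, DGR1 by 2.41 and the expansin EXPA18 by 2.11. RHS14, RHS18, RSH3 and MRH6, known from root hairs, differed by 4.56, 4.12, 2.87 and 2.57. The ROP activators ROPGEF12 and ROPGEF10 differed by 4.16 and 3.42, and ADF8, an actin depolymerising factor, by 2.36. AGD11 had the largest difference, 8.23. MES13, a methyl esterase, differed by 4.94, RAP2.11 by 4.22, the aquaporin PIP2E by 3.39, PGSIP4 and QWRF7 by 3.26 each, ACS2 by 3.1, the kinase CIPK18 by 2.71 and the malate transporter ALMT1 by 2.54.

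The other 5 fell in ΔMP and rose in AXR3-1. CYP82C4 differed by -5.23 and FRO2 by -3.59, both of iron uptake. PMAT1 differed by -2.21, GRX480, a glutaredoxin, by -2.19 and PCK2 by -2.13.

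Against Col-0, 3 genes called in ΔMP that met the conditions for naming moved in opposite directions. Each was past the adjusted p in both lines and in the difference. Genes below the 2-fold call in ΔMP, GA2OX6 among them, were not part of this count. ATGA2OX1 rose in ΔMP and fell in Col-0 (difference 2.64), as did cPT4, a prenyltransferase gene (1.92), whereas TT7 fell in ΔMP and rose in Col-0 (-2.20).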

How the results depend on the processing

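Leaving out 1 library at a time gave 568 to 622 called genes for ΔMP (596 with all), 360 to 407 for the difference from Col-0, 313 to 368 for genes called in both, 863 to 951 for the difference from AXR3-1, 81 to 107 for Col-0 and 57 to 69 for ΔMP at 90 min against its mock. DESeq2 gave 571 for ΔMP. Limma on log2(TPM + 1) gave 343 for ΔMP, 53 for Col-0 and 26 for ΔMP against mock, a scale that shrinks the change of low genes. Limma on log2(TPM + 0.5) gave 65 and 35 for the last 2, and 37 for ΔMP against mock with genes of 1 TPM or more. By adjusted p alone the counts, in the order given first, were 4154, 1693, 1407, 3337, 1102 and 787, and with a limit of 0.58 on the log2 scale they were 1346, 876, 732, 1823, 322 and 211. Promoters of risen genes held an auxin element in 25.7% with the 250 bases before the start alone, where 14.4% of fallen and 14.8% of all promoters did.

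Same-lettered libraries of both times correlated by -0.004, 0.05 and -0.042 (A, B and C) in ΔMP, by 0.029, 0.085 and 0.203 in Col-0 and by 0.102, 0.053 and -0.005 in AXR3-1. In no line was every pair above 0.1, and the letters were not taken as pairs. The replicate block gave 592 called genes for ΔMP, 408, 358 and 940 for the differences in the same order, 102 for Col-0 and 66 against mock.

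Of 145 named genes with 2144 values under alternatives, none reversed, and 89 values fell below the call, in 27 genes. In 17 genes this happened on leaving out 1 library.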

Other observations

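The following families were picked after their values were seen, so their counts are descriptions. Over all genes tested, 2.09% were called up and 0.963% down. Of 46 tested extensin or proline-rich protein genes, whose products crosslink into the wall, 12 were called up and none down (26.1% called). EXT6 was at 12.8, 11.98 and 18.1 TPM at 90 min and at 100.5, 94.3 and 103 TPM at 180 min. Of 148 cytochrome P450 genes, 10 were called up and 5 down (10.1%). Of 59 peroxidases, 4 were called up and 6 down (16.9%), with PER4 from 41.6, 37.9 and 44.7 TPM to 16.0, 14.3 and 17.1 TPM. Of 54 WRKY factors, known from defence, 2 were called up and 5 down (13.0%). Shares were lower in other families: 4.69% of 64 NAC factors, 5.45% of 55 calmodulin-like or EF-hand proteins and 6.67% of 105 UDP-glycosyltransferases were called.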
